A study of Arabidopsis thaliana with 5 samples.

Results

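The genes described are the cytosolic 40S ribosomal protein genes of Arabidopsis thaliana, a list of 60 loci that code for 24 proteins of the small ribosomal subunit. A locus was measured on its own where the array annotation named it as the single gene of a probe set, which held for 40 of the 60 loci, among 13513 single-gene probe sets of 22810 on the array. A further 15 loci shared 8 probe sets with a paralog, a duplicated gene for the same protein, and are described apart. The annotation paired no probe set with the other 5, which are not analysed here. Of the 40, 38 passed a filter on low signal and were tested, and they code for 21 of the 24 proteins.

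Transcripts were measured on Affymetrix ATH1 arrays in roots of the Columbia ecotype, with no transgene named in the labels. All seedlings grew for 5 days at pH 5.7 and then spent 24 h at pH 4.6, so no group at the starting pH takes part in any comparison. In 3 samples, called sorted protoplasts, whole roots were digested to wall-free cells, which passed a fluorescence-activated cell sorter and gave RNA from about 50000 cells per sample. In the other 2 samples, called whole roots, the roots were left intact and 1 µg of total RNA was labelled. The series asks how protoplasting and sorting change the transcriptome, and amount of input RNA, extraction kit and preparation cannot be told apart in this design.

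The small ribosomal subunit binds messenger RNA and checks the match between codon and transfer RNA. It has a head, which carries a protrusion called the beak, and a body with a platform, and each ribosomal protein sits at a fixed place on this RNA core. Plants keep several expressed genes for almost every ribosomal protein, where mammals as a rule keep a single one, so that a plant ribosome can be built from different paralog combinations. Ribosomal protein messages are short and abundant in dividing root tip cells. Places and roles given below are known from yeast and mammals unless another source is named.

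Values are MAS5 signals, linear probe set intensities that were scaled by the authors to the same trimmed mean on each array. A signal depends on the probes, so only the change of 1 probe set between samples, or the change of a ratio, is read below. Fold changes are log2 values of sorted protoplasts minus whole roots, and a gene was called where limma's Benjamini-Hochberg adjusted p over all 13647 tested probe sets was under 0.05. Some markers of other tissues, and control probe sets, differed between the groups. The 2 named shoot photosynthesis genes summed to signals of 92.6 to 112 in sorted protoplasts and 802 to 971 in whole roots, and both were called lower. The 2 named meristem genes summed to 442 to 551 against 191 to 193, and both were called higher. Summed marker signals ranged from 46.1 to 130 against 128 to 140 for root hair, from 96.4 to 111 against 96.2 to 97.7 for cortex, from 506 to 1173 against 389 to 454 for endodermis, from 124 to 255 against 127 to 135 for xylem and from 78.3 to 242 against 68.3 to 86.3 for root cap, and no phloem marker was named. In these lists 1 tested marker was called, AT1G62510 of the cortex, which was lower. The other cortex marker, AT1G09750, went the opposite way. It read 58.5, 80.5 and 62.1 in sorted protoplasts and 28.8 and 12.5 in whole roots, and the filter left it untested. Controls with probe sets at either end of a message give a 3′ to 5′ ratio, which is higher where less of the 5′ end was copied or kept. For actin this ratio ran from 19.8 to 29.3 over the sorted samples and read 3.08 and 3.29 in whole roots. It ran from 5.22 to 9.18 against 0.969 and 0.788 for a first GAPDH control, from 1.33 to 1.51 against 1.05 and 1.15 for a second, and from 2.57 to 2.90 against 1.10 and 1.52 for ubiquitin. The part of these markers and ratios in the results below was not tested. In such bulk samples, fewer cells of a type and less RNA per cell cannot be told apart.

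Among the 38 tested 40S genes, 5 were called higher and 14 lower in sorted protoplasts, and 19 were not called. That is 13.2% higher and 36.8% lower, beside 34.1% higher and 26.5% lower over all tested probe sets. The median log2 fold change of the 40S genes was -0.12 against 0.15 over all probe sets, and single genes ran from -1.91 to 1.24. After each array was centred on its median, all probe sets had a median of 0.39 and the 40S genes one of 0.12. The 40S calls became 10 higher and 10 lower, beside 5925 higher and 2876 lower of all 13647 probe sets. Centring shifts every fold change by the same amount, so the gap of -0.27 between the medians could not change. Quantile normalization gave 10 higher and 13 lower 40S genes, beside 4955 and 3569 of all probe sets. The medians were -0.05 for the 40S genes and 0.20 for all probe sets. In 24 of the 38 genes the 3 sorted samples and the 2 whole-root samples did not overlap (63.2%, beside 75.8% over all probe sets), 8 with the sorted samples above and 16 with them below (42.7% and 33.1% over all probe sets). The count of higher calls was 8, 3 and 3 without sorted replicate 1, 2 or 3, beside 5209, 3928 and 3771 over all probe sets. The count of lower calls was 9 without whole-root replicate 1 and 8 without whole-root replicate 2.

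**Figure D1:**
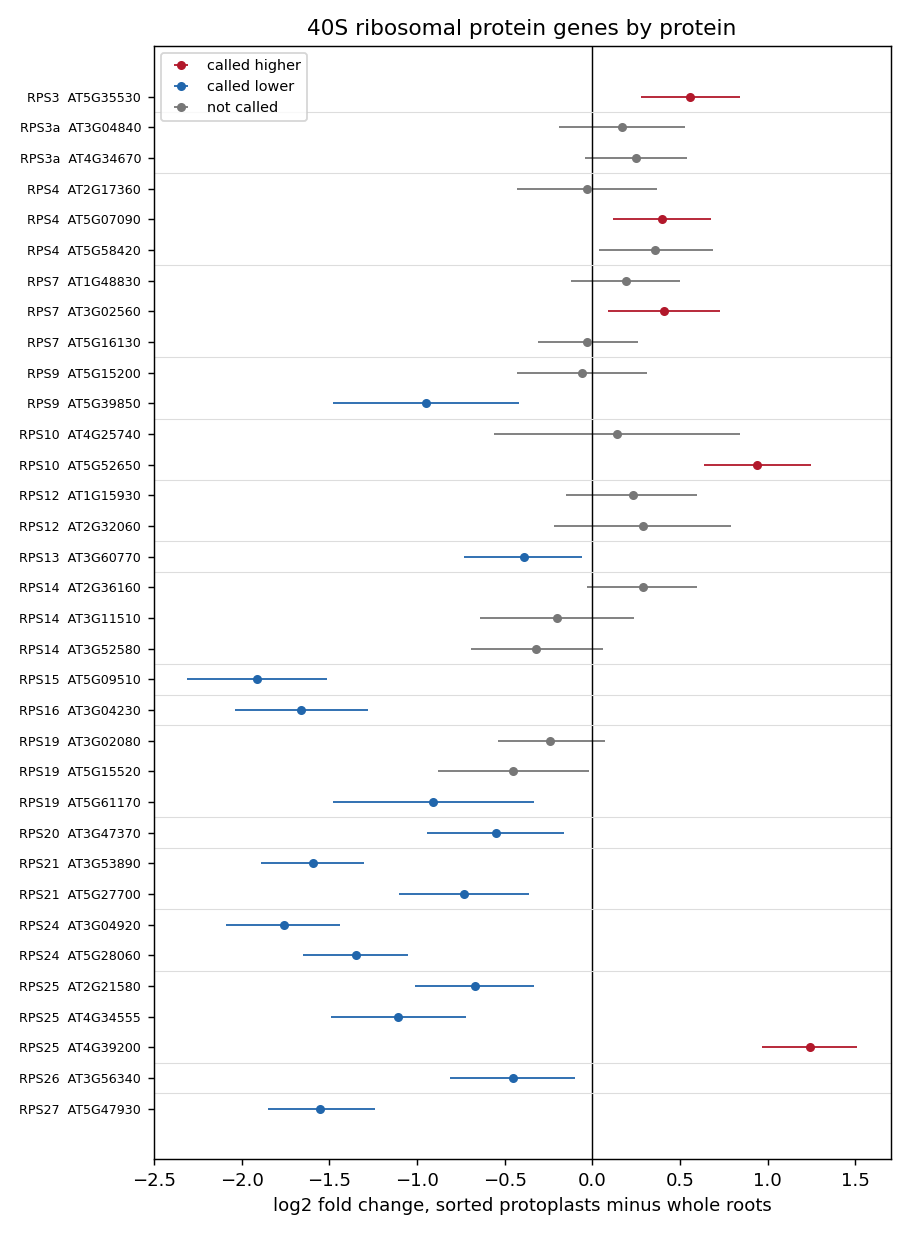
Log2 fold change (sorted protoplasts minus whole roots, horizontal axis) of 34 of the tested 40S ribosomal protein genes, grouped by protein, with points for limma's estimate from 3 against 2 samples and bars for its 95% confidence interval. Red genes were called higher (5), blue genes lower (14) and grey genes not called (15); RPS25 is the protein with called genes on both sides.

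The gene with the highest fold change was AT4G39200, which codes for RPS25, a head protein that yeast and mammalian ribosomes need for initiation at some internal entry sites. Its signal was 7454, 7410 and 7271 in sorted protoplasts and 3192 and 3064 in whole roots. All 3 sorted samples lay above both whole-root samples, and the log2 fold change was 1.24 (SE 0.116, limma adjusted p = 9.32e-05). Both other RPS25 genes went the opposite way. AT4G34555 had signals of 256, 205 and 227 in sorted protoplasts and 477 and 505 in whole roots. Every sorted sample lay below the whole roots, and the log2 fold change was -1.11 (SE 0.165, limma adjusted p = 8.02e-04). AT2G21580 had signals of 624, 693 and 712 against 991 and 1160. Here too the groups did not overlap, and the log2 fold change was -0.67 (SE 0.147, limma adjusted p = 0.00529), which missed the threshold when whole-root replicate 2 was left out (adjusted p = 0.0611).

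RPS10 sits at the beak of the head, near the path by which messenger RNA enters. Its gene AT5G52650 had signals of 5573, 6653 and 6252 in sorted protoplasts and 3097 and 3295 in whole roots. The sorted samples were all higher, with a log2 fold change of 0.94 (SE 0.131, limma adjusted p = 5.79e-04). Its paralog AT4G25740 had signals of 851, 1820 and 1508 against 1066 and 1359. Sorted replicate 1 fell below both whole-root samples and the other sorted samples lay above them, and the gene was not called (log2 fold change 0.14, limma adjusted p = 0.707).

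RPS3 lines the messenger RNA entry channel of the head. Signals of AT5G35530 were 6303, 6933 and 6487 in sorted protoplasts and 4333 and 4578 in whole roots. The groups did not overlap and the log2 fold change was 0.56 (SE 0.120, limma adjusted p = 0.00470). The 2 other RPS3 genes, AT2G31610 and AT3G53870, share a probe set with a log2 fold change of 0.13 (limma adjusted p = 0.482). RPS12, a beak protein, had no called gene, at 0.23 for AT1G15930 and 0.29 for AT2G32060.

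The largest fall was that of AT5G09510, a gene for RPS15, whose tail reaches the decoding site from the head. Its signal was 206, 258 and 254 in sorted protoplasts and 980 and 819 in whole roots. No sorted sample came near the whole roots, and the log2 fold change was -1.91 (SE 0.174, limma adjusted p = 8.30e-05). The other 2 measured RPS15 genes were under the filter and not tested. AT5G09500 read 44.0, 36.8 and 40.2 against 35.4 and 34.3, and AT5G43640 read 2.46, 10.7 and 9.77 against 11.9 and 10.6.

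AT3G04230 codes for RPS16, a head protein with a tail that touches the transfer RNA in the peptidyl site. Its signal was 167, 184 and 203 in sorted protoplasts and 555 and 606 in whole roots. The groups were far apart, at a log2 fold change of -1.66 (SE 0.163, limma adjusted p = 1.19e-04). The head protein RPS19, whose human gene is mutated in Diamond-Blackfan anaemia, had 1 called gene of 3. AT5G61170 read 1034, 1778 and 1834 against 2705 and 2918, a log2 fold change of -0.91 (SE 0.248, limma adjusted p = 0.0141). Sorted replicate 1 was the lowest sample, and the fold change without it was -0.64. Neither whole-root array could be left out without losing the call (adjusted p = 0.0692 without replicate 1 and 0.0959 without replicate 2). AT3G02080 and AT5G15520, the other RPS19 genes, had values of -0.24 and -0.45 and were not called. RPS20, also of the head, was called lower through AT3G47370 (-0.55, limma adjusted p = 0.0224), a call lost without either whole-root array (0.0884 and 0.120).

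In the body and platform, both tested genes of RPS24 and both of RPS21 were called lower. RPS24, another protein altered in human Diamond-Blackfan anaemia, was measured through AT3G04920 with signals of 522, 611 and 560 in sorted protoplasts and 1985 and 1843 in whole roots. The sorted samples were lower without overlap, at a log2 fold change of -1.76 (SE 0.140, limma adjusted p = 4.77e-05). AT5G28060, the second RPS24 gene, read 1284, 1173 and 1114 against 3039 and 3015, a log2 fold change of -1.35 (SE 0.131, limma adjusted p = 1.08e-04).

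RPS21, a small protein on the solvent side of the subunit, had signals of 1566, 1443 and 1415 against 4294 and 4594 for AT3G53890. All sorted samples were lower, with a log2 fold change of -1.59 (SE 0.127, limma adjusted p = 4.76e-05). The paralog AT5G27700 read 3262, 4230 and 3889 against 5645 and 6926, a log2 fold change of -0.73 (SE 0.160, limma adjusted p = 0.00527), and the adjusted p rose to 0.0540 when whole-root replicate 2 was left out. RPS27, a zinc-binding protein of the platform side, was represented by AT5G47930, which read 1460, 1679 and 1570 in sorted protoplasts and 4737 and 4415 in whole roots. Again the groups did not overlap, and the log2 fold change was -1.55 (SE 0.130, limma adjusted p = 5.84e-05).

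RPS9 takes part in unwinding and proofreading at the messenger RNA entry. Its gene AT5G39850 read 169, 262 and 270 in sorted protoplasts and 461 and 423 in whole roots. The sorted samples were lower (log2 fold change -0.95, SE 0.229, limma adjusted p = 0.00812), but not past the threshold when whole-root replicate 1 was left out (adjusted p = 0.0689). The other RPS9 gene, AT5G15200, read 6227, 6536 and 5868 against 5509 and 7583, with the sorted samples inside the range of the whole roots, and was not called (-0.06, adjusted p = 0.768). RPS13 (AT3G60770, -0.39, limma adjusted p = 0.0463) and RPS26 (AT3G56340, -0.45, adjusted p = 0.0331) were called lower close to the threshold. The RPS13 call was lost without sorted replicate 1, sorted replicate 3 or either whole-root array, with adjusted p from 0.0507 to 0.197. The RPS26 call was lost without sorted replicate 3 or either whole-root array, with adjusted p from 0.0721 to 0.132.

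The remaining body proteins had mostly uncalled genes. RPS7 had 1 higher gene of 3, AT3G02560, with signals of 4576, 5536 and 5036 against 3540 and 4053 (log2 fold change 0.41, SE 0.139, limma adjusted p = 0.0336). RPS4 had 1 higher gene of 3, AT5G07090, with signals of 2452, 2589 and 2503 against 1928 and 1884 (0.40, SE 0.121, adjusted p = 0.0217). In both genes the sorted samples were all higher, and both calls were lost without any 1 array other than sorted replicate 1, with adjusted p from 0.0557 to 0.184 for AT3G02560 and from 0.0791 to 0.0993 for AT5G07090. Both calls were also lost without the mean-variance trend and with the replicate number as a block, and that of AT3G02560 with no filter. No gene of RPS3a (0.17 and 0.25) or RPS14 (0.29, -0.20 and -0.32) was called.

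Sorted replicate 1 stood apart from the other sorted samples. Its log2 signals correlated with theirs at 0.954 and 0.956 over the tested probe sets, while replicates 2 and 3 correlated at 0.987. It held the lowest of the 3 sorted values in 27 of the 38 40S genes (71.1%) and in 42.6% of all tested probe sets. Without it, 18 of the 19 called genes were still called in the same direction and 3 more were called higher. Among them were AT4G25740 of RPS10, with a log2 fold change of 0.46 (limma adjusted p = 0.0212) without that array, and AT2G32060 of RPS12, at 0.51 (adjusted p = 0.00361).

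Paralogs of the same protein were then compared directly. For each pair of tested genes, the log2 ratio of both probe sets was taken within each array and its change between the groups was fitted with limma beside all probe sets, so that a shift of a whole array cancels. Of 22 pairs from 12 proteins, 6 pairs from 5 proteins were called different, beside 60.6% of all features in that fit called in either direction. The ratios did not overlap between the groups in 16 pairs, a share close to the 75.8% of single probe sets without overlap. The count was 10 without sorted replicate 1 and 2 without whole-root replicate 1. Of the 12 proteins, 1 (RPS25) had both a higher and a lower gene, 2 (RPS21 and RPS24) had every tested gene lower, 5 had some genes called and some not, and 4 (RPS3a, RPS12 and RPS14 among them) had no called gene.

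**Figure D2:**
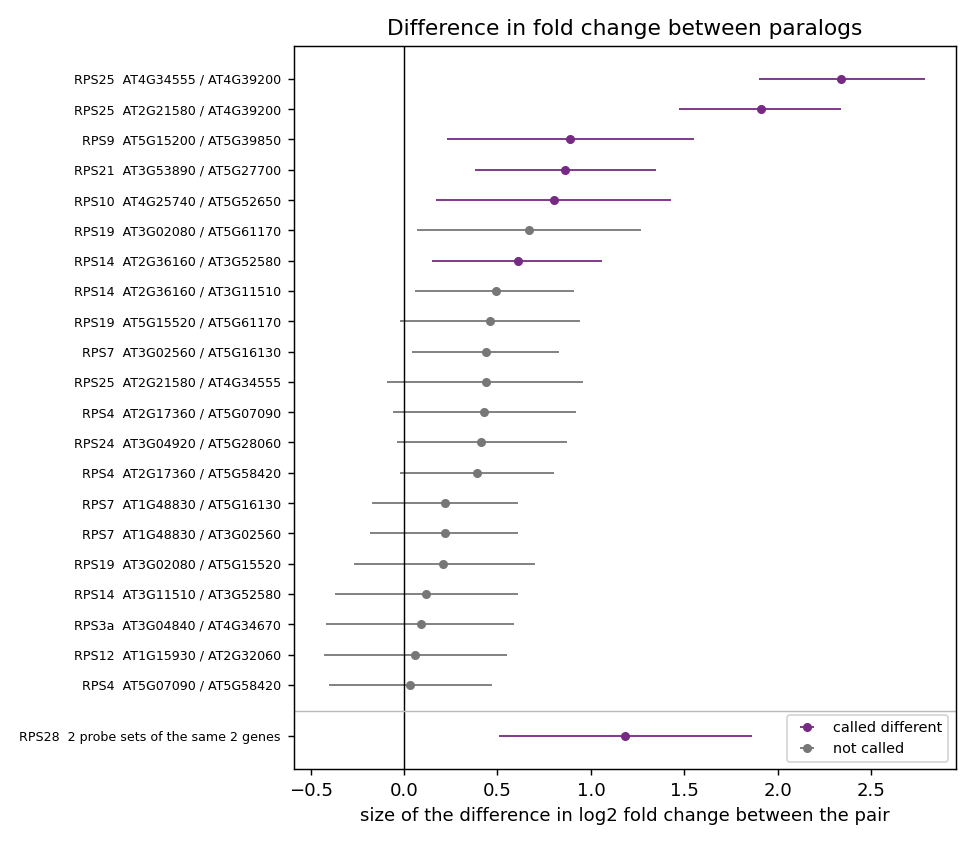
Size of the difference in log2 fold change between 2 genes of the same protein (horizontal axis, points, with 95% confidence intervals as bars) for 21 of the 22 pairs, with those called different in purple. The entry under the line compares 2 probe sets that the annotation gives to the same 2 RPS28 genes, a comparison chosen after the values were seen. Only 2 gene pairs, both of RPS25, differed more.

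The largest differences were those between the risen RPS25 gene and its paralogs. The log2 ratio of AT4G34555 to AT4G39200 was -4.86, -5.18 and -5.0 in sorted protoplasts and -2.74 and -2.60 in whole roots. The ratio was lower in every sorted sample, a difference of -2.34 (95% confidence interval -2.79 to -1.90, limma adjusted p = 5.42e-05), or a 5.08-fold change. The log2 ratio of AT2G21580 to AT4G39200 was -3.58, -3.42 and -3.35 against -1.69 and -1.40, a difference of -1.91 (-2.34 to -1.47, adjusted p = 1.24e-04). Both RPS25 differences remained called under each of the 14 alternatives run. Between the lower pair, AT2G21580 and AT4G34555, no difference was called.

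**Figure D3:**
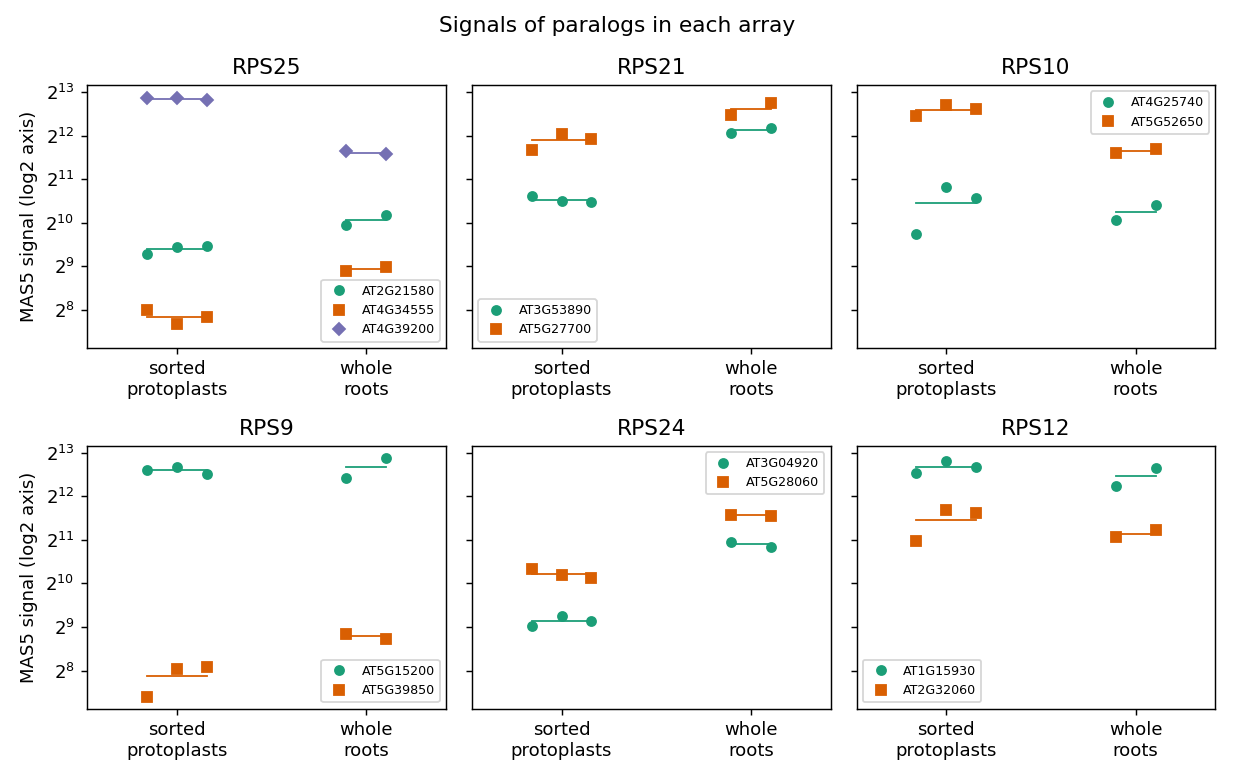
MAS5 signal (vertical axis, log2 scale) of the tested paralogs of 6 proteins in each array, with points for the 3 sorted protoplast and 2 whole-root samples and lines for group means. Levels of different genes come from different probes and are not comparable; the reader should see the RPS25 gene AT4G39200 rise from 3192 and 3064 to between 7271 and 7454 while its paralogs fell.

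Smaller differences were called in 4 proteins. Each depended on single arrays, and some also on the settings of the fit. The RPS21 log2 ratio of AT3G53890 to AT5G27700 was -1.06, -1.55 and -1.46 in sorted protoplasts and -0.39 and -0.59 in whole roots. The difference was -0.86 (95% confidence interval -1.35 to -0.38, limma adjusted p = 0.00834), with no call without whole-root replicate 1 (0.0688). Both RPS21 genes were lower, so this is a difference in size and not in direction.

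For RPS9, the log2 ratio of AT5G15200 to AT5G39850 was 5.20, 4.64 and 4.44 against 3.58 and 4.16. It was higher in all sorted samples, by 0.89 (0.23 to 1.55, limma adjusted p = 0.0273). The difference shrank to 0.60 without whole-root replicate 1 and was not called with pairs fitted alone (limma adjusted p = 0.0607). For RPS10, the log2 ratio of AT4G25740 to AT5G52650 was -2.71, -1.87 and -2.05 against -1.54 and -1.28. The difference was -0.80 (-1.43 to -0.17, adjusted p = 0.0331). It was not called without sorted replicate 3 (0.0545), with no filter (0.0529), without the mean-variance trend (0.0583) or with pairs fitted alone (0.0607). It was -0.93 without whole-root replicate 1 and -0.67 without whole-root replicate 2.

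RPS14, a platform protein at the messenger RNA exit, had no called gene and yet a called pair. AT2G36160 read 4546, 5063 and 4479 in sorted protoplasts and 3541 and 4166 in whole roots. AT3G52580 read 1529, 2026 and 1595 against 2242 and 2011. The first gene was higher in all sorted samples and the second overlapped between the groups. The log2 ratio of AT2G36160 to AT3G52580 was 1.57, 1.32 and 1.49 in sorted protoplasts and 0.66 and 1.05 in whole roots. These did not overlap, and the difference was 0.61 (0.15 to 1.06, limma adjusted p = 0.0294). The call was lost without sorted replicate 3 (0.0958) and with the replicate number as a block (0.118). It was also lost with no filter (0.0582), without the mean-variance trend (0.0630) and with pairs fitted alone (0.0607). Without whole-root replicate 1 the difference was 0.41.

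At the other end were pairs with small differences, none called. In RPS4, AT5G58420 read 3657, 3186 and 3659 in sorted protoplasts and 2969 and 2479 in whole roots, with all sorted samples higher as in AT5G07090. In RPS12, AT1G15930 read 5929, 7244 and 6527 against 4844 and 6469, and AT2G32060 read 2015, 3291 and 3139 against 2131 and 2390. Both RPS12 genes overlapped between the groups. In RPS3a, a platform protein, AT3G04840 read 3672, 4726 and 4691 against 3641 and 4102, which overlap. AT4G34670 read 7804, 7144 and 6758 against 6042 and 6101, with all sorted samples higher. The differences were 0.03 (95% confidence interval -0.40 to 0.47) for AT5G07090 and AT5G58420 of RPS4, -0.06 (-0.55 to 0.43) for AT1G15930 and AT2G32060 of RPS12, and -0.09 (-0.59 to 0.42) for AT3G04840 and AT4G34670 of RPS3a. In the RPS4 pair, AT5G07090 was called higher (0.40) and AT5G58420 was not (0.36), although their difference was among the smallest. These intervals still allow differences as far from 0 as -0.59.

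The 8 shared probe sets gave 5 lower calls and no higher one, and 3 were not called, beside 26.5% lower and 34.1% higher over all probe sets. The probe set of the RPS26 genes AT2G40590 and AT2G40510, for a protein at the messenger RNA exit, read 337, 418 and 394 in sorted protoplasts and 2046 and 1778 in whole roots. The groups were far apart, at a log2 fold change of -2.32 (SE 0.157, limma adjusted p = 2.49e-05), the lowest value of any 40S probe set tested. Lower calls were also made, among others, for the probe sets shared by 2 RPS20 genes (-0.88, limma adjusted p = 6.07e-04) and 2 RPS16 genes (-0.85, adjusted p = 0.00252). RPS23, which carries a loop of the decoding centre, was not called through its shared probe set (-0.18, adjusted p = 0.267).

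Shared probe sets were set against the single-gene probe set of the same protein where there was one, a comparison chosen after the values were seen. For RPS26, the shared genes fell more than AT3G56340, by a difference of -1.87 (95% confidence interval -2.28 to -1.45, limma adjusted p = 1.05e-04). The RPS16 shared genes fell less than AT3G04230, by 0.81 (0.32 to 1.30, adjusted p = 0.0119; 0.107 without whole-root replicate 1). The differences for RPS3 (-0.44, adjusted p = 0.0634) and RPS20 (-0.33, adjusted p = 0.181) were not called. Without sorted replicate 1 the RPS20 difference was -0.46 (adjusted p = 0.0254).

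RPS28, another protein at the messenger RNA exit, shows how far 2 probe sets of the same genes can part. Both of its probe sets are annotated to AT3G10090 and AT5G03850. One read 706, 793 and 788 in sorted protoplasts and 2882 and 1648 in whole roots, a log2 fold change of -1.52 (limma adjusted p = 8.40e-04). The other read 2442, 3572 and 3269 against 3649 and 4054, a log2 fold change of -0.33 (adjusted p = 0.144). The comparison of both probe sets was also chosen after the values were seen. Their difference, -1.18 (95% confidence interval -1.86 to -0.51, limma adjusted p = 0.00908), was larger than 4 of the 6 called paralog differences. It was -0.71 without whole-root replicate 1 (adjusted p = 0.0744). Probe sequences were not used here, so whether a probe set named for 1 gene also binds its paralogs was not tested.

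Fold change went with gene length among the 40S genes. Tested 40S genes had a median length of 1628 bp with introns (989 to 2263), and the 7334 tested genes with a known length one of 2384 bp. Spearman's rho between log2 fold change and length was 0.54 over the 38 genes and 0.32 over all tested genes with a length. These are correlations across genes on the same arrays, and genes are not independent replicates. With the trend over all genes removed, 12 of the 40S genes were called higher and 6 lower, and their median was 0.23. In that fit 4445 of all 13647 probe sets were called higher and 3402 lower. Only probe sets with a known gene length were shifted. Of the 19 called 40S genes, 11 kept their call. Among the genes named above, AT4G39200 (1.66), AT5G52650 (1.27), AT5G09510 (-1.59), AT3G04920 (-1.38) and AT5G47930 (-0.95) kept their direction, and AT3G47370 (0.10), AT3G56340 (0.05) and AT3G60770 (0.01) turned from lower to slightly above 0. AT4G34555 (-0.40, limma adjusted p = 0.0657), AT2G21580 (-0.07) and AT5G27700 (-0.04) stayed below 0 without a call, as did AT5G39850 (-0.53, adjusted p = 0.0802) and AT5G61170 (-0.46, adjusted p = 0.150). The fall of AT3G04230 shrank from -1.66 to -0.64 and that of AT3G53890 from -1.59 to -0.72. The longer gene of a pair had the higher fold change in 9 of the 22 pairs and in 4 of the 6 called pairs, both RPS25 pairs included. The 6 called pairs were also called with the trend removed, RPS25 at -2.05 and -1.73.

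**Figure D4:**
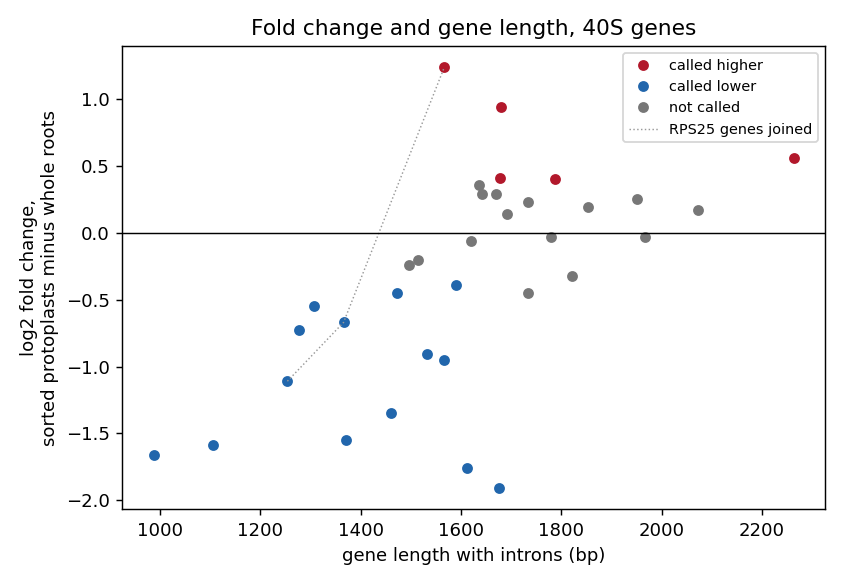
Log2 fold change (sorted protoplasts minus whole roots, vertical axis) against gene length with introns in bp (horizontal axis) for 34 of the tested 40S genes, coloured by call, with the 3 RPS25 genes joined by a dotted line. Over all 38 tested genes Spearman's rho was 0.54; AT5G09510 and AT3G04920 were called lower at lengths where most other genes were not called.

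Genes related to the small subunit or to the ribosome as a whole were counted from lists. The counts are to be read against 34.1% of all tested probe sets called higher, 26.5% lower and 60.6% in either direction. Of 26 listed ribosome biogenesis genes, 9 had a tested probe set, of which 7 were called higher and 0 lower, with a median log2 fold change of 1.07. Of 26 listed genes of the initiation complex that the 40S subunit joins, 8 were tested, 2 were higher and 3 lower, and the median was -0.18. Its largest called change was that of AT5G35680, at 1046, 771 and 674 against 2945 and 3778 (-2.03, limma adjusted p = 1.49e-04). The single tested gene of the TOR and S6 kinase list, RAPTOR1, was not called (0.28, limma adjusted p = 0.200). Among 4 tested 40S genes outside the 60 loci, 1 was higher and 2 lower. AT3G57490 had the largest change, at 698, 1143 and 1111 against 377 and 356 (1.39, limma adjusted p = 0.00126). Of 102 listed genes of the large subunit, 61 were tested, 7 were higher and 31 lower, and the median was -0.47. That split turned to 19 higher and 13 lower with the length trend removed, beside 4445 and 3402 over all probe sets. It was 13 higher and 19 lower with median centring, beside 5925 and 2876 over all probe sets. The higher count was 12 without sorted replicate 1 and 4 without whole-root replicate 1.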

How the data were processed

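Signals came from 5 ATH1 arrays, 3 of sorted protoplasts and 2 of whole roots. The intensity values used are linear signals as the authors deposited them; the submitters' processing notes name MAS5. Their mean after trimming 2% at each end was 250 on each array. Software version and detection calls were not given in the sources used here, and the number of arrays limits the precision.

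The deposited values were taken to log2 without normalizing them again. After removal of 64 control probe sets, the filter dropped the 40% of probe sets with the lowest mean log2 signal (9099, mean signal under 43.3). The remaining 13647 were tested with limma 3.58.1 (R 4.3.3; lmFit, eBayes with trend, a term for group and no other) and Benjamini-Hochberg adjustment over all of them. Log2 ratios of paralogs, divided by the square root of 2, were added to the same fit (13669 features). The steps were tested on simulated data, in which modest changes were often missed; a first criterion for recovery was not met and was replaced by checks of false calls, bias and interval coverage. A gene or pair without a call may therefore still differ. Nothing in the labels says that replicates were separate cultures; p-values therefore cover the spread among these samples alone, possibly a technical one.

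Gene names of probe sets came from the platform annotation and lengths came from the RefSeq gene table. Which protein a locus codes for follows standard Arabidopsis naming, since these tables give most loci by identifier alone. The 40S genes, the lists and the tests were chosen with earlier results of these data known, and the large-subunit list was written after the annotation was read. The genes given with full values are the 5 largest called changes in each direction, both genes of the 6 largest called pair differences and of the 3 smallest pair differences, and the largest called change of a list; others were chosen after their values were seen. Values of 3 of the proteins are not reported here, though the counts over all tested genes include them.

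Each fit was repeated after quantile normalization or median centring, with a pseudocount of 32, with no filter or one at 60%, with no trend, the replicate number as a block, the length trend removed (loess, span 0.5), pairs fitted alone and each array left out. Deviations of same-numbered samples from their group means correlated at 0.00569 and 0.00134. With 2 whole-root arrays these deviations are mirror images of each other, so the correlations cannot show whether the numbers pair the samples.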

Additional observations from a re-analysis of the deposited data

Results flagged for a closer look

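A control probe set for 25S ribosomal RNA, which no comparison above uses, gave a mean signal of 6952 in sorted protoplasts, above the whole roots. It read 7828, 6874 and 6156 in the 3 sorted samples and 96.4 and 2897 in the 2 whole-root samples. The whole-root samples differed more from each other than the sorted samples did. The part of this signal in the 40S values was not tested.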

How the results depend on the processing

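Of the 19 called 40S genes, 9 kept direction and call under all alternatives run. So did 2 of the 6 called paralog pairs (both of RPS25) and all 5 called shared probe sets. Only probe sets of a single gene were given a length, so shared probe sets were not tested with the length trend removed. Higher calls, 5 in the reported fit, were 10 with median centring, 10 with quantile normalization, 3 without the mean-variance trend, 3 with the replicate block and 12 with the length trend removed. Over all probe sets they were 4649 as reported and, in the same order, 5925, 4955, 4558, 3801 and 4445. Lower calls, 14 as reported, were 6 with the length trend removed, 10 with median centring and 13 with quantile normalization. Over all probe sets they were 3623 as reported and, in the same order, 3402, 2876 and 3569. Called pairs, 6 as reported, were 10 with quantile normalization, 10 with the length trend removed and 3 fitted alone. With single arrays left out, higher calls ranged from 3 to 8, lower calls from 8 to 14, called pairs from 2 to 10, and the median of all probe sets from 0.13 to 0.18. The median of the 40S genes moved to 0.12 with median centring and 0.23 with the length trend removed. The median of all probe sets was 0.39 with median centring, 0.20 with quantile normalization, 0.12 with the pseudocount, -0.02 with no filter, 0.25 with the filter at 60% (2223 lower calls among fewer probe sets tested), 0.15 with the replicate block and 0.13 with the length trend removed. The replicate block is shown as a check, since the labels do not say that a number marks a shared batch.

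Reversals were of uncalled values near 0, except AT3G60770 (0.01), AT3G47370 (0.10) and AT3G56340 (0.05) with the length trend removed. That trend also turned AT2G17360 (0.09), AT5G16130 (0.22), AT5G15200 (0.32), AT3G11510 (0.27), AT3G02080 (0.24) and the pair AT5G07090 against AT5G58420 (-0.09). Median centring turned AT2G17360 (0.21), AT5G16130 (0.21), AT5G15200 (0.18), AT3G11510 (0.04), AT3G02080 (0.00) and the RPS23 shared probe set (0.06). Quantile normalization turned AT5G16130 (0.11), AT5G15200 (0.09), that RPS23 probe set (0.00) and the pair AT1G15930 against AT2G32060 (0.02), which the replicate block also turned (0.04). As each array was left out, ranges crossed 0 for AT2G17360 (-0.22 to 0.16), AT5G15200 (-0.29 to 0.17), AT4G25740 (-0.09 to 0.46) and AT5G16130 (-0.09 to 0.04), and for the pairs AT5G07090 against AT5G58420 (-0.08 to 0.15), AT3G11510 against AT3G52580 (-0.15 to 0.39), AT3G04840 against AT4G34670 (-0.19 to 0.09) and AT1G15930 against AT2G32060 (-0.21 to 0.07). The cause was not tested. With 3 against 2 arrays and no detection calls, values near the filter carry the least information.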

Other observations

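Ribosome biogenesis genes were called higher in sorted protoplasts in 7 of 9 cases, beside 34.1% of all probe sets. The list holds genes of ribosome assembly in general and was not limited to the small subunit. AT3G51270 had the largest change, at 489, 591 and 580 against 187 and 148 (log2 fold change 1.73, limma adjusted p = 1.41e-04). AT5G14520 read 4573, 5558 and 4685 against 2086 and 2004. The groups did not overlap in either gene. DIM1A, a dimethyltransferase of small-subunit ribosomal RNA, read 267, 523 and 455 against 523 and 368, with overlap, and was not called.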
